A study of Mus musculus with 48 samples.

Results

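C/EBPa and HNF4a are DNA-binding regulators of liver genes. C/EBPa, a basic leucine zipper protein, is known for its part in the metabolic genes of the mature hepatocyte, and HNF4a, a nuclear receptor, binds many of the same liver enhancers and promoters. After birth the liver takes up adult tasks such as drug oxidation, bile sterol export and growth hormone response, and its blood-forming role ends. The regions described here are the places in the genome where both C/EBPa replicates were listed as bound at P14 and at P60, but at no stage before, although a single earlier replicate could be.

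Chromatin immunoprecipitation with sequencing (ChIP-seq) was made from untreated wild-type mouse liver for C/EBPa and for HNF4a, with 2 biological replicates a stage. The fetal stages were embryonic day 15.5 (e15.5) and embryonic day 18.5 (e18.5), and the stages after birth were day 0.5 (P0.5), day 14 (P14) and day 60 (P60). All mice are labelled F1 (C57Bl6/CBA), and the protocol speaks of males. RNA came from 3 livers labelled C/EBPa knockout, 2 labelled HNF4a knockout and 3 wild-type (WT) livers. Both knockouts carry floxed alleles removed by the Alfp-Cre transgene, which joins an albumin promoter to Afp enhancers and acts from the hepatoblast, the shared precursor of hepatocytes and bile duct cells, so blood and endothelial cells keep their alleles. The labels give the age of the RNA livers as 60 postnatal days, whereas the design text of the series gives E18.5. Afp, the fetal serum protein, was abundant in every RNA library, with 97621 to 381833 normalised reads in C/EBPa knockout livers, 227430 and 305323 in HNF4a knockout livers and 499143 to 706964 in WT livers. H19 had 303520 to 724668 and Igf2 106407 to 183035 normalised reads in WT livers. If the design text holds, the RNA was taken before the stages at which both C/EBPa replicates listed the regions described here. At e18.5 none of the regions described here held a peak of both C/EBPa replicates, but 383 (22.4%) held one in replicate 1.

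A stage region was a merged interval that held a peak of both replicates of 1 stage, and the stage regions of all 5 stages were merged into 107812 C/EBPa regions. The members were chosen by their listing at both P14 and P60 and at none of e15.5, e18.5 and P0.5, which left 1708 regions, or 1.58% of all. They are called late regions below. For comparison, 7670 regions were bound at every stage, 7660 at P60 only and 21969 at e18.5 and P0.5 only. Because the C/EBPa lists chose the members, their stages of binding are a description and carry no test.

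The absence before P14 was not equally complete for every member. No early C/EBPa list held a peak at 926 late regions (54.2%), 1 early list did at 518, 2 did at 258, and 3 or more did at 6. Such single-replicate peaks came mainly from e18.5 replicate 1 (22.4% of the late regions) and P0.5 replicate 2 (24.0%), and least from the e15.5 lists (1.41% and 0.995%). Just outside the rule lay 1783 regions bound at P14, at P60 and at exactly 1 early stage, which was P0.5 for 1459, e18.5 for 298 and e15.5 for 26. Inside it, the P14 and P60 stage regions of a member overlapped by 2 bp or more, with a median of 560.5 bp, and by under 100 bp in 4 members. The early lists were not uniformly short: they held 13434 and 16900 peaks at e15.5 and 70171 to 121624 at e18.5 and P0.5, and the later ones 40636 and 45245 at P14 and 52237 and 89407 at P60. Without P14 replicate 1, the stage resting on its other replicate, the rule found 2600 regions. The peak files hold positions and no heights, and the depth behind them is unknown.

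Sequences of the late regions themselves were not read, since no genome of their build was used. In their place stand promoters from RefSeq, from 250 bases before to 50 after the start site, on GRCm38.p6. They are shown because a late region covered this whole window around the start site in the deposited gene table, which uses mm9; the RefSeq start can differ from that one. Abcg5, Aox3, Mug1 and Mug2 were genes lower in the C/EBPa knockout, and Fmo2 has 2 RefSeq starts that each hold a C/EBP match. Capitals mark the C/EBP motif TTGCNNAA and the HNF1 core GTTAAT on either strand; the HNF4 motif CAAAGTCCA was also searched and has no match here.
Abcg5, minus strand, chr17:84682962-84683261: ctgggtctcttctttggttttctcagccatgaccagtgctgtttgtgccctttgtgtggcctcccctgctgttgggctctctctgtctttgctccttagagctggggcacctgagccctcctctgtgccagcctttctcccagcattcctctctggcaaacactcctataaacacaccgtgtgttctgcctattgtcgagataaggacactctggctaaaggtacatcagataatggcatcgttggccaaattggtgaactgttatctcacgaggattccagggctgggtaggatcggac
Aox3, plus strand, chr1:58112886-58113185: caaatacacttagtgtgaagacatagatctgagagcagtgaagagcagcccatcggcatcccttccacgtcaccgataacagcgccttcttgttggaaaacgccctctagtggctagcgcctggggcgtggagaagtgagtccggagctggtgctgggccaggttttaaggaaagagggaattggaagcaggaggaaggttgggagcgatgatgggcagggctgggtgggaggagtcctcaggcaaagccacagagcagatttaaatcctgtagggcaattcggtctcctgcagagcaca
Mug1, plus strand, chr6:121838291-121838590: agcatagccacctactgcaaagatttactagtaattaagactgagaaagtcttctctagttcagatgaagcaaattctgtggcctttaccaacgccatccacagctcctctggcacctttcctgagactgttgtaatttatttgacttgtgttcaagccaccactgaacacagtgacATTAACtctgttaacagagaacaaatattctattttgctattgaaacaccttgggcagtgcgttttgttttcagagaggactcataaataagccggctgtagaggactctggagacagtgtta
Mug2, plus strand, chr6:122006548-122006847: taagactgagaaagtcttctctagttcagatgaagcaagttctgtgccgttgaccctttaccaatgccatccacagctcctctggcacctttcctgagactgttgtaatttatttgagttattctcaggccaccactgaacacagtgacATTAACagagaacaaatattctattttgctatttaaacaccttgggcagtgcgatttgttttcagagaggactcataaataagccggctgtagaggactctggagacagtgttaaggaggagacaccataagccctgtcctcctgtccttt
Fmo2, upstream start, minus strand, chr1:162898709-162899008: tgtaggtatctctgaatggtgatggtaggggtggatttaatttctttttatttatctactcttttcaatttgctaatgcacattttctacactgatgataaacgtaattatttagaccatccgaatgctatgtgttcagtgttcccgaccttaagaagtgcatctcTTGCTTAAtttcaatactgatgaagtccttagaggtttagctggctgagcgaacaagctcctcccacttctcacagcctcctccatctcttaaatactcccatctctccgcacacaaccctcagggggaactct
Fmo2, downstream start, minus strand, chr1:162898444-162898743: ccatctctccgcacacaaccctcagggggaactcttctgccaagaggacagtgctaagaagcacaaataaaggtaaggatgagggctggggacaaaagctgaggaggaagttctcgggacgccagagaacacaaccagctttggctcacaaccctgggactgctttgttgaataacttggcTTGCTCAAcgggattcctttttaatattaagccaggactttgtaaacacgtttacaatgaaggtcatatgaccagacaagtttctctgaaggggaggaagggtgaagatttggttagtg

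The first bases of the C/EBP matches lie 84 and 69 bases before the Fmo2 start sites, TTGCTTAA at 84 before the upstream start and TTGCTCAA at 69 before the downstream start. Mug1 and Mug2, a pair of related genes for plasma protease inhibitors, share a run of 60 bases, and both hold the HNF1 core as ATTAAC. In all, the window of 30 genes lay inside a late region, and 18 of them matched RefSeq by symbol, with 25 promoters. Of these 25, 7 (28.0%) held TTGCNNAA, against 24.4% of 698 promoters inside every-stage regions and 10.8% of all 32851 promoters. The 7 come from 3 of the 18 genes, Cyp4f14 with 4 starts, Fmo2 with 2 and D830013O20Rik with 1. Counted by gene the order is the other way, with 16.7% of the 18 genes against 28.5% of 565 genes in every-stage regions and 12.2% of all 27025 genes. The letters CAAAGTCCA stood in none of the 25, in 0.573% of the promoters in every-stage regions and in 0.475% of all promoters. The HNF1 core stood in 5 of the 25 (20.0%), against 7.31% and 7.10%. Several of the 25 are alternative starts of 1 gene, and Mup11 and Mup17 are near-copies, so they are not independent. Matches describe these letters and are not measured sites.

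HNF4a was listed at few of the late regions up to P0.5 and at many more of them at P14 and P60. HNF4a peaks were not used to choose the regions. At e15.5 HNF4a peaks lay in 12.8% and 10.2% of the late regions, at e18.5 in 5.97% and 5.56%, at P0.5 in 11.2%, at P14 in 49.0% and 49.8%, and at P60 in 60.3% and 70.1%. The lists of the 2 P0.5 replicates were identical and were counted once. All 4 later lists stood above all 5 earlier ones, with no overlap between the groups. The mean was 57.3% ± 9.97 in the P14 and P60 lists (SD, n = 4) and 9.15% ± 3.23 in the earlier lists (SD, n = 5), a difference of 48.1 percentage points (exact permutation test, 2-sided, p = 0.0159, the smallest that 126 arrangements allow). With each stage counted once, 2 later against 3 earlier stages, the difference was 47.8 points and the exact test gave p = 0.2, the smallest possible in that design. With each HNF4a list cut to its widest peaks, as many as the shortest list holds, the difference was 31.2 points (exact permutation p = 0.0159).

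Regions bound at every stage did not show a gap of this size. Their HNF4a shares ran from 68.3% and 61.3% at e15.5 through 35.1% and 30.0% at e18.5, 50.5% at P0.5, and 56.9% and 58.1% at P14 to 70.7% and 74.0% at P60. Their later lists averaged 64.9% ± 8.67 (SD, n = 4) and their earlier lists 49.0% ± 16.4 (SD, n = 5), a difference of 15.9 points (exact permutation p = 0.143). The late regions held fewer HNF4a peaks than the every-stage regions in 9 of 9 lists, by 25.6 points on average (exact sign-flip test, 2-sided, p = 0.00391, the smallest possible). The difference was -7.62 points in the P14 and P60 lists and -39.9 points in the earlier lists, and the change of 32.3 points was itself tested (exact permutation p = 0.0159). With each stage counted once the 2 values were -26.9 points (exact sign-flip p = 0.0625) and 32.2 points (exact permutation p = 0.2), each p the smallest that 5 stages allow. As a ratio, the late regions reached 0.88 of the every-stage share in the later lists (0.853 to 0.948) and 0.186 in the earlier lists (0.166 to 0.221). The step was not particular to the late regions. Regions bound at P60 only had it too, with 26.4% ± 13.7 in the later lists (SD, n = 4) and 4.96% ± 2.53 in the earlier lists (SD, n = 5), a difference of 21.4 points (exact permutation p = 0.0159). It was larger at the late regions by 26.7 points (exact permutation p = 0.0159), whose shares were above those of the P60-only regions in all 9 lists, by 16.1 points on average (exact sign-flip p = 0.00391). With each stage counted once these were 26.4 points (exact permutation p = 0.2) and 15.0 points (exact sign-flip p = 0.0625). The late regions were also wider than the P60-only regions, with medians of 739 and 500 bp. The part of width in these differences was not tested. All C/EBPa regions together averaged 24.9% in the later and 15.8% in the earlier lists (exact permutation p = 0.0635), and regions bound only around birth averaged 9.46% in the later and 11.5% in the earlier lists (exact permutation p = 0.587).

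**Figure D1:**
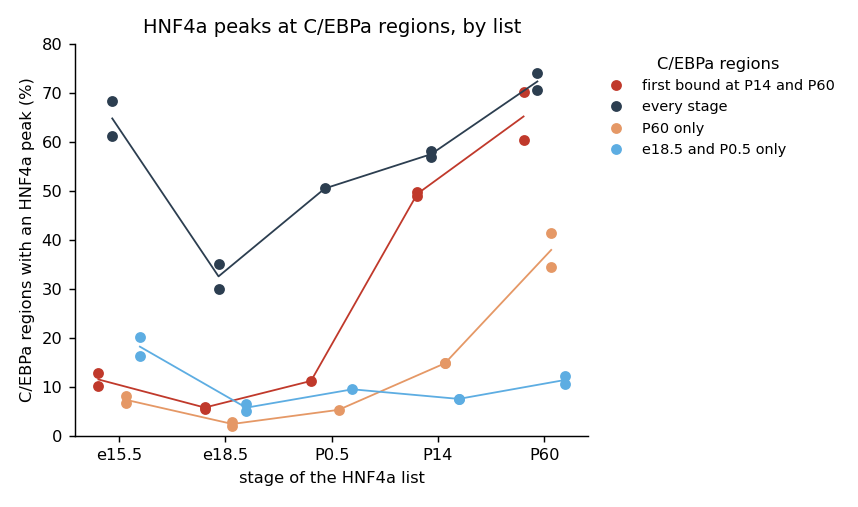
Percentage of C/EBPa regions that held an HNF4a peak (y axis) in each HNF4a list, by stage of the list (x axis); each point is 1 list, lines join the stage means, and the identical P0.5 lists are 1 point. Late regions, in red, stay at 12.8% or below up to P0.5 and lie between 49.0% and 70.1% at P14 and P60.

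HNF4a was also counted by stage regions, which need a peak of both replicates. By that count 803 late regions (47.0%) had HNF4a at P14 or P60 and at no earlier stage. This held for 878 every-stage regions (11.4%) and 1894 P60-only regions (24.7%). Both factors appeared together at P14 and P60 with no earlier stage region of either at 458 late regions (26.8%). HNF4a had that pattern at 3.52% of every-stage and 6.08% of P60-only regions. HNF4a had a stage region at an earlier stage at 261 late regions (15.3%), and at no stage at 644 (37.7%). HNF4a regions that were themselves first listed at P14 and P60 numbered 4006; 452 late C/EBPa regions (26.5% of them) overlapped 446 of these (11.1% of the HNF4a regions). In single lists, 667 late regions (39.1%) held an HNF4a peak in all 4 lists of P14 and P60, and 397 of the 667 held none in any earlier list. At the other end, 410 (24.0%) had no HNF4a peak in any of the 4.

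The step between early and later HNF4a lists was present in each subdivision of the late regions. In the 926 regions with no early C/EBPa peak at all, HNF4a peaks were in 58.0% on average in the later lists and in 4.79% in the earlier ones. In the 264 regions with peaks in 2 or more early C/EBPa lists these means were 52.3% and 17.0%. Late regions within 1 kb of a start site held HNF4a in 64.3% and 17.7%, those over 50 kb away in 52.0% and 6.68%. The share also followed width: the 423 widest of the late regions reached 76.2% in the later lists, against 42.2% in the 427 narrowest. With these regions and the HNF4a peaks both set to 200 bp to each side of their middle, the shares were 70.1% in the widest and 39.8% in the narrowest. These splits compare regions that share the same lists and are a description.

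**Figure D2:**
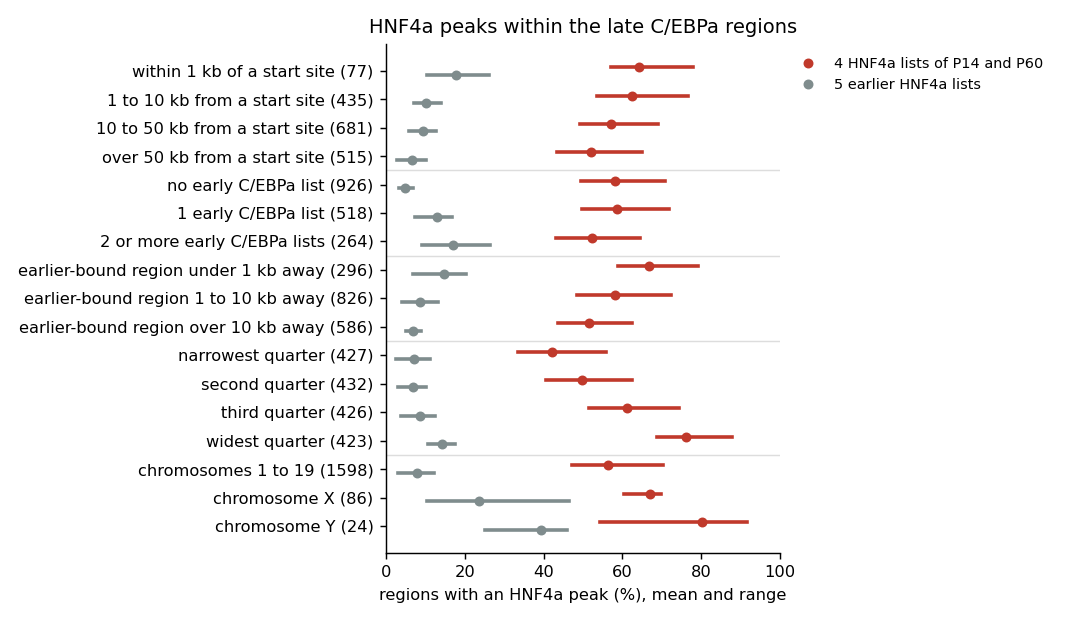
Percentage of late C/EBPa regions with an HNF4a peak (x axis), mean and range over the 4 lists of P14 and P60 and over the 5 earlier lists, for subdivisions of the late regions (y axis, number of regions in parentheses). The later lists lie to the right of the earlier ones in every row, from 42.2% for the narrowest regions to 80.2% for chromosome Y.

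Most late regions were far from gene starts. The median distance to the nearest start site was 23169 bp, against 13367.5 bp for every-stage regions, 28356.5 bp for P60-only regions and 17850 bp for those bound around birth. Within 1 kb of a start lay 77 late regions (4.51%), against 1275 every-stage regions (16.6%), and over 50 kb away lay 515 (30.2%) against 1530 (19.9%). Gene bodies held 949 late regions (55.6%) and 4924 every-stage regions (64.2%). The late regions had a median width of 739 bp, against 921 bp at every stage, 500 bp at P60 only and 466 bp around birth. The P14 peaks were the widest of all C/EBPa lists, with medians of 638 and 642 bp, and each late region holds one. Regions bound earlier were often near: 296 late regions had one under 1 kb away and 826 at 1 to 10 kb.

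**Figure D3:**
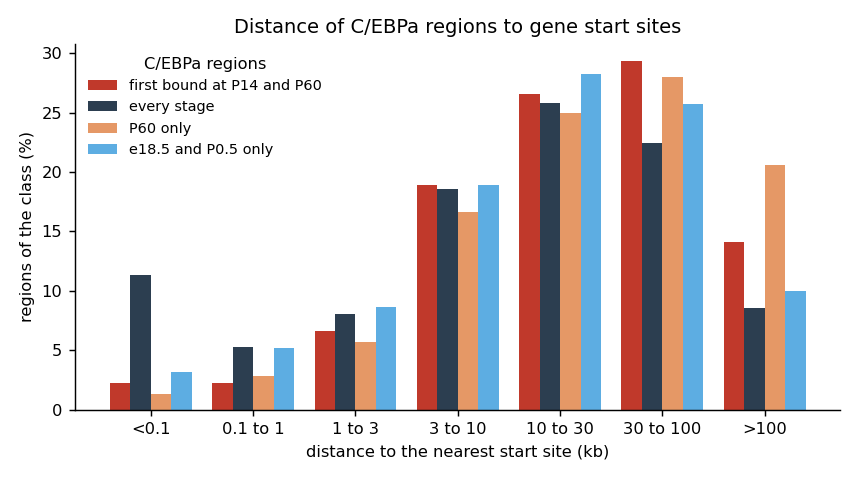
Percentage of C/EBPa regions (y axis) by distance to the nearest gene start site (x axis, kb), for late regions and 3 other classes. The every-stage bars are the tallest within 1 kb, where 16.6% of that class lies, against 4.51% of the late regions.

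The late regions were spread over all chromosomes, with 1598 on the 19 autosomes, 86 on X and 24 on Y. Chromosome Y held 1.41% of the late regions and 0.0946% of all C/EBPa regions, and X held 5.04% and 2.40%. HNF4a shares of these regions were 80.2% on Y and 66.9% on X in the later lists, and 39.2% and 23.5% in the earlier lists, so on Y and X more of them held early HNF4a peaks than the 7.92% on autosomes. Without both chromosomes the difference between later and earlier lists was 48.5 points. The longest run of late regions with gaps of at most 50 kb was 9 regions at chr5:15113286-15200762, around Speer4d, Speer7-ps1 and 4930572O03Rik. The 3 widest late regions, of 4668, 4311 and 4101 bp, all lay there. Speer genes are a family of near-identical copies, where placement of reads is uncertain. In all, 389 late regions (22.8%) had another within 50 kb.

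Most genes of adult liver function had no late region close by. Of the 37583 genes in the deposited table, 640 (1.70%) had one within 10 kb of the start site, as had 397 of the 17771 genes with enough RNA to be tested (2.23%), and of 426 gene IDs in 20 lists of liver functions and cell markers 45 did. Nearly all list genes also had a region bound earlier within 10 kb, 52 of 54 cytochrome P450 and xenobiotic genes for example, against 79.1% of all tested genes. The largest share was among sex-biased and pituitary-dependent genes, with 6 of 33: Fmo2, Gna14, Igf1, Igfals, Mup1 and Slc22a26. Acute phase and plasma carrier genes had 5 of 33 (A1bg, Azgp1, Itih3, Rbp4, Serpina6), bile acid genes 4 of 27 (Abcg5, Abcg8, Akr1c6, Cyp27a1) and fatty acid oxidation genes 4 of 27 (Fabp1, Hadha, Hadhb, Pdk4). Gluconeogenesis and glycogen genes had 3 of 21 (Khk, Ppp1r3c, Ugp2), lipoprotein genes 5 of 36 (Apoc1, Apoc2, Apoc4, Apoe, Mlxipl) and urea cycle and amino acid genes 5 of 40 (Agxt, Ahcy, Hpd, Slc25a13, Tdo2). Coagulation and complement genes had 4 of 37 (C1ra, C4bp, Fgg, Mbl2), P450 and xenobiotic genes 5 of 54 (Cyp2c37, Cyp2c55 and Cyp3a44 among them) and liver transcription factors 3 of 37 IDs (Bcl6, Nfix, Nr1i2). Among 27 cell cycle genes Mcm5 had one (3.7%), and none of 18 circadian genes, 19 fetal liver genes or the markers of 7 cell types did. Lists this short cannot tell such counts from the 1.70% of all genes. Neighbours share regions by position: 1 late region lies within 10 kb of both Abcg5 and Abcg8, 1 of the 4 apolipoprotein genes Apoc1, Apoc2, Apoc4 and Apoe, and 1 of Hadha and Hadhb.

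**Figure D4:**
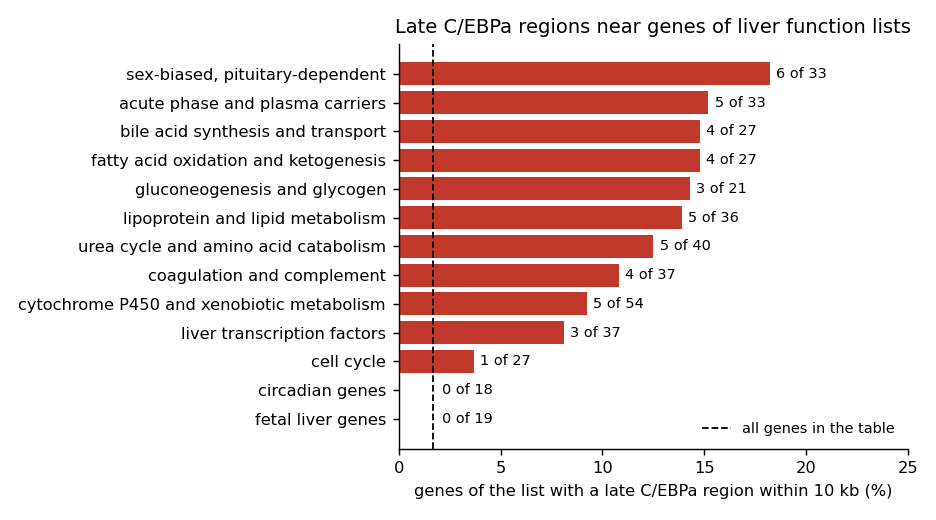
Percentage of the genes of each function list with a late C/EBPa region within 10 kb of the start site (x axis), with the counts beside the bars; the dashed line is the 1.70% of all genes in the table. The sex-biased and pituitary-dependent list stands highest with 6 of 33. The circadian and fetal lists have none of 18 and 19, too few genes to tell from the dashed line.

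A late region lay within 1 kb of the start site of 8 list genes. For Abcg5, which with Abcg8 forms the pump that exports sterols into bile, it covered the start at chr17:85082034-85082668 on mm9, with HNF4a peaks at P0.5, P14 and P60. For Igfals, whose product holds IGF1 in the circulation, the region at chr17:25014158-25014700 had HNF4a peaks at all 5 stages. The region over the start of Fmo2, a flavin monooxygenase, at chr1:164828043-164829168 had HNF4a in all 4 later lists and in none before. Those of Gna14, a G protein subunit (chr19:16510062-16510804), and Slc22a26, an organic anion carrier (chr19:7876704-7877438), had it in 2 later lists each. The region of Mup1, a major urinary protein that carries pheromones, at chr4:60514700-60516191 had HNF4a peaks at e18.5, P14 and P60. A late region lay over the start of 4 of the 21 Mup genes in the table, which are near-copies in which reads cannot be placed with certainty. Inside Tdo2, the gene for the first step of tryptophan breakdown, chr3:81777374-81779356 lay 768 bp past the start. Inside C4bp, an inhibitor of complement, chr1:132556688-132557261 lay 948 bp past the start and had no HNF4a peak at any stage.

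In C/EBPa knockout livers, 29 of the 397 tested genes with a late region within 10 kb were lower than in WT, and 6 were higher. That is 7.30% and 1.51%, against 2.86% and 0.883% of all 17771 tested genes (limma on log2 of normalised reads + 1, Benjamini-Hochberg adjusted p under 0.05). Around every-stage regions 266 of 3034 tested genes (8.77%) were lower and 11 (0.363%) higher, and around P60-only regions 82 of 1342 (6.11%) and 22 (1.64%). The median log2 change was -0.13 near late regions and 0.03 over all tested genes. Of the 397 genes, 351 also had a region bound earlier within 10 kb, and 27 of these were lower; of the 46 without one, 2 were lower (4.35%) and 1 was higher. Genes whose late region had HNF4a first at P14 or P60 were lower in 16 of 201 cases (7.96%), and those whose late region had no HNF4a stage region in 10 of 125 (8.00%). Without WT replicate 1 the 29 were 18, with 1.45% of all genes called lower, and without C/EBPa knockout replicate 1, WT replicate 1 or WT replicate 2 the 6 were 3, with 0.318% to 0.462% called higher. With library totals as the scaling, the median of all genes moved to 0.53 and the calls to 20 lower and 18 higher, while the shares over all genes moved to 1.82% lower and 2.67% higher; all 29 and all 6 genes kept their sign. In bulk tissue, fewer cells of a type and less RNA per cell cannot be told apart.

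Cebpa itself had 322, 419 and 998 normalised reads in C/EBPa knockout livers, against 9999, 9594 and 5511 in WT livers (log2 change -3.98 ± 0.44, SE, limma adjusted p = 0.000413). Of 5 bile duct markers 2, Sox9 and Spp1, were higher in the C/EBPa knockout, and the summed level of the 5 was 6824 to 9191 in knockout and 1084 to 2262 in WT livers. The sum of 5 hepatocyte markers was 218327 to 791052 in knockout and 2156368 to 3379487 in WT livers, with none of the 5 past the threshold. Most of that sum was Alb, with 127285 to 670004 reads in knockout and 1491169 to 3098691 in WT livers. Alb, Serpina1a and Trf were lower in knockout livers without overlap. Apoa1 overlapped WT, and Ttr had a log2 change of 0.00. The part of these cell type differences in the gene counts was not tested.

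The 10 largest falls include 5 genes for enzymes (Hpd, Cyp2c37, Aox3, Tdo2 and Cyp3a44), the pair Abcg5 and Abcg8, Mug1, Mug2 and Accn5. Hpd, an enzyme of tyrosine breakdown, had 23, 30 and 18 normalised reads in C/EBPa knockout livers, against 3879, 5179 and 3219 in WT livers (log2 change -7.38 ± 0.34, SE, limma adjusted p = 4.08e-06). Its region, chr5:123637162-123637837, lay 4428 bp upstream, with HNF4a in all 4 later lists and in none before. Cyp2c37, a cytochrome P450, had 28, 6 and 2 reads in knockout livers, against 660, 921 and 2101 in WT livers (-7.00 ± 0.76, limma adjusted p = 0.000382); its region at chr19:40063770-40064577, 2332 bp upstream, had the same HNF4a pattern. Aox3, an aldehyde oxidase, had 15, 10 and 33 against 1129, 527 and 2319 in WT (-5.94 ± 0.63, limma adjusted p = 0.000308), and the region over its start, chr1:58169404-58170411, had HNF4a from P0.5. In none of these 3 genes did the knockout and WT libraries overlap. C/EBPa regions bound earlier also lay within 10 kb of their start sites, 7 for Hpd, 1 for Cyp2c37 and 4 for Aox3.

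Tdo2 had 0, 0 and 1 normalised reads in C/EBPa knockout livers, against 50, 67 and 74 in WT livers (log2 change -5.66 ± 0.66, limma adjusted p = 0.000609). Accn5, an ion channel gene, shares its late region and had 3, 0 and 1 in knockout livers, against 48, 43 and 161 in WT livers. Abcg5 had 3, 1 and 3 in knockout livers, against 122, 73 and 260 in WT livers, and its partner Abcg8 had 5, 3 and 2 against 200, 101 and 309 in WT livers. The log2 changes of these 4 genes lay between -5.66 and -5.14, with limma adjusted p between 0.000609 and 0.00655, and their groups did not overlap. Mug1 had 0, 1 and 15 reads in knockout livers, against 153, 91 and 118 in WT livers, and Mug2 had 0, 0 and 1 against 40, 53 and 43. Cyp3a44, another P450, had 4, 3 and 43 in knockout livers and 402, 414 and 466 in WT livers. Mug1, Mug2, Cyp2c37 and Cyp3a44 belong to families of similar sequence, so reads may be shared with other members. Of these 10, Mug1 alone lost its call when 1 library was left out (adjusted p = 0.0739 without WT replicate 1). Mug2 alone of the 10 had no C/EBPa region bound earlier within 10 kb of its start site.

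Of the other 19 genes that fell, 9 kept their call in every fit with 1 library left out. They were Agxt (glyoxylate removal, log2 change -4.75), Fgg (fibrinogen gamma chain, -3.67), Apoc1 (-3.36), Mbl2 (mannose-binding lectin, -3.05), Ugp2 (-2.58), Acat3 (-2.49), Sec14l2 (-2.40), Ppp1r3c (-2.35) and Elovl2 (fatty acid elongation, -2.20). The 10 genes that lost it in 1 or more such fits were Akr1c6, Azgp1, Ceacam1, Cyp27a1, Foxq1, Gstk1, Itih3, Lamp2, Pex11a and Rbpms2, with log2 changes from -4.42 to -1.32. Gstk1 alone of the 19 had no C/EBPa region bound earlier within 10 kb of its start site. The regions nearest to the 29 genes were 27 in number; 21 had no HNF4a peak in any earlier list, 13 had one in all 4 later lists and 2 had none in any list. Over all 1708 late regions these 3 counts were 1366, 667 (39.1%) and 405 (23.7%), so the share without an earlier peak was close to that of all late regions.

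Serpina6, the corticosteroid-binding globulin of plasma, rose most in the C/EBPa knockout. It had 54960, 32605 and 21688 normalised reads in knockout livers, against 173, 166 and 412 in WT livers (log2 change 7.21 ± 0.47, SE, limma adjusted p = 2.48e-05), and its late region at chr12:104897320-104897951 lay 1898 bp upstream, with HNF4a in all 4 later lists only. Cyp2c55 had 110, 95 and 68 in knockout livers, against 1, 0 and 3 in WT livers (5.50 ± 0.84, adjusted p = 0.00358). Ugt1a9, which joins glucuronic acid to drugs, had 43, 160 and 194 in knockout livers, against 3, 0 and 4 in WT livers (5.36 ± 0.88, adjusted p = 0.00553); its exons are partly shared with the other Ugt1a genes. Those 3 kept their call with any library left out. Sel1l3 (log2 change 4.60), Slc22a27 (4.36) and 2610002D18Rik (1.50) passed the threshold with all libraries and missed it in 4 to 6 of the 6 fits with 1 left out. Cyp2c55 alone of the 6 rises had no C/EBPa region bound earlier within 10 kb of its start site, and Serpina6 had 5.

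**Figure D5:**
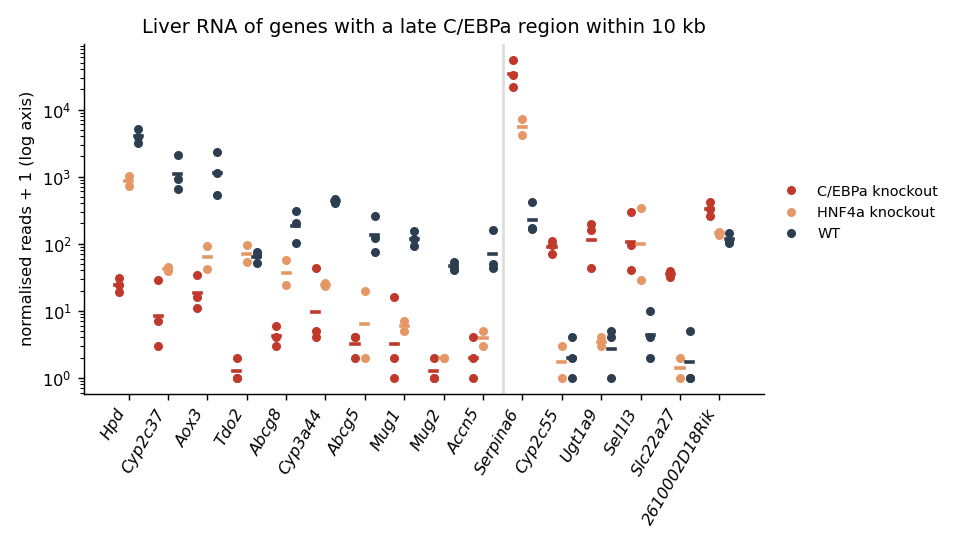
Normalised reads + 1 on a log axis for the 10 largest falls (left of the line) and the 6 rises (right) in C/EBPa knockout against WT livers among genes with a late region within 10 kb; each point is 1 library, bars are means on the log scale. C/EBPa knockout and WT points do not overlap for any of the 16 genes, and Serpina6 lies at 21688 reads or more in the C/EBPa knockout, against 412 or less in WT. HNF4a knockout libraries are drawn too, and their points overlap those of WT for some genes, Tdo2 and Cyp2c55 among them.

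Of the 8 list genes with a late region within 1 kb, Abcg5 and Tdo2 fell and no other passed the test. C4bp had 943, 534 and 535 normalised reads in C/EBPa knockout livers, against 249, 254 and 332 in WT livers (log2 change 1.22 ± 0.38, limma adjusted p = 0.125). Fmo2 had 18, 11 and 26 in knockout livers, against 71, 30 and 62 in WT livers (-1.50 ± 0.59, adjusted p = 0.253), and Igfals had 378, 406 and 695 against 420, 271 and 340 (0.49 ± 0.35, adjusted p = 0.62). Gna14 and Mup1 stayed under 100 reads in all 8 libraries and did not pass, and Slc22a26 was too low to be tested. Across the bile acid list, 18 of 26 tested genes were lower in the knockout whether or not a late region was near; the 4 with one were all among the 18. For P450 and xenobiotic genes 31 of 48 tested were lower, 2 of the 4 tested genes with a late region among them, and for sex-biased genes 5 of 28, none of the 5 tested with a late region. Of the 40 amino acid genes 25 were lower, with 3 of the 5 near late regions. The median log2 changes of these lists were -3.18 for bile acid, -3.85 for P450, -0.79 for sex-biased and -2.10 for amino acid genes, beside 0.03 over all tested genes.

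At most 3 late regions lay within 50 kb of a tested gene, and 14 tested genes had that number. The first 10 by name were Bbs9, Brp44, D17Wsu104e, Dcaf6, Dpp9, Larp1b, Lypla1, Mrpl15, Ncoa5 and Prkaa2, and none passed the threshold in either knockout. Prkaa2, a catalytic subunit of the energy sensor AMPK, had a late region 609 bp past its start, at chr4:104781021-104781886. It had 61, 51 and 43 normalised reads in C/EBPa knockout livers, against 413, 174 and 165 in WT livers (log2 change -2.14 ± 0.61, limma adjusted p = 0.0939); the groups did not overlap. Brp44 and Dcaf6 are neighbours that share their regions.

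In HNF4a knockout livers, 33 of the same 397 genes were lower than in WT (8.31%, against 3.17% of all tested genes), and 5 were higher (1.26%, against 1.54%). The WT libraries are those of the C/EBPa comparison, so the 2 comparisons are not independent; 17 genes (4.28%) were lower in both, as were 261 of all tested genes (1.47%). The median log2 change was -0.13 near late regions and 0.02 over all tested genes. The lowest relative to WT of the list genes with a late region was Mbl2, with 16 and 14 normalised reads in HNF4a knockout livers, against 878, 1640 and 1362 in WT livers (log2 change -6.29 ± 0.45, SE, limma adjusted p = 0.000171); its log2 change in the C/EBPa knockout was -3.05. Nr1i2, the xenobiotic receptor PXR, had 55 and 97 in HNF4a knockout livers, against 1372, 872 and 1048 in WT livers (-3.86 ± 0.45, adjusted p = 0.000871); in the C/EBPa knockout its change was -1.19 (adjusted p = 0.172). Tdo2 had 93 and 52 reads in HNF4a knockout livers and so overlapped the WT libraries (0.15 ± 0.74, adjusted p = 0.929). Serpina6 was higher in both knockouts, with 4231 and 7276 reads in the HNF4a knockout (4.60 ± 0.52, adjusted p = 0.000739).

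The HNF4a knockout counts rest on 2 libraries. Hnf4a itself had 1238 and 2444 normalised reads there, against 9098, 4948 and 6718 in WT livers (log2 change -1.95 ± 0.45, limma adjusted p = 0.033). HNF4a knockout replicate 1 stood apart with 234321 reads of Ckm, a skeletal muscle gene, against 20 in replicate 2 and at most 10 in WT livers. The summed level of the 4 skeletal muscle markers was 127 and 530496 in HNF4a knockout livers and 34 to 99 in WT livers. Sums of other cell types moved in both HNF4a knockout libraries without overlap with WT. Single markers within these sums did overlap WT, such as Dcn, Lrat, Clec4f, C1qa, Hba-a1 and Ttr. The 4 stellate cell markers summed to 14722 and 53385 in HNF4a knockout livers and to 4340 to 5180 in WT livers, with 1 of the 4 past the threshold. Of these 4, Des had 31081 reads in the muscle-rich replicate 1 and 612 in replicate 2, and Col1a1 had 19659 and 11721. Lrat had 186 and 260, against 200 to 333 in WT livers. The 4 macrophage markers summed to 20861 and 25262 against 10039 to 13059 in WT livers, the 4 erythroid markers to 2307242 and 3669289 against 598847 to 2074613, and the 5 hepatocyte markers to 597172 and 1026334 against 2156368 to 3379487, with none past the threshold. Without that muscle-rich replicate the 33 were 12, without HNF4a knockout replicate 2 15, without WT replicate 1 17 and without WT replicate 3 21, while the share of all genes called lower was 1.22%, 1.76%, 1.63% and 2.13% in the same order. The part of the muscle RNA and of the other cell types in these counts was not tested.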

How the data were processed

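Peak lists and RNA values were used as the authors deposited them, 20 lists in all, each with its peaks as positions and a score of 0 throughout; per the submitters' processing notes the build is mm9 and MACS 1.4 was among the tools. RNA values are whole-number scores deposited by the authors: read counts per gene normalised with DESeq, which the submitters' processing notes name, and rounded, so no count model was fitted. Their totals were 13448347 to 25992243 a library. Whether counting used strand is not given in the sources used here. The GC fraction that the authors give for each gene was not used. RNA polymerase II and input samples were not used here.

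Regions were merged in Python 3.11.15 with at least 1 bp of overlap. RNA was tested with limma 3.58.1 (R 4.3.3), trend of variance on expression, on log2(value + 1) over all 8 libraries; 17771 of 37583 genes had 10 or more in at least 2 libraries. Fold changes of low genes are understated on that scale. The titles of the RNA samples say replicate, and their column names add the letters BR without spelling them out. P-values measure the spread between these samples, and the labels do not state whether each is a separate animal. Scripts were tested on simulated data.

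Members and gene lists were chosen with earlier results of these data known. A list symbol shared with a pseudogene stood for its protein-coding ID. Genes were named by rule: the 10 with most late regions within 50 kb, the 10 largest falls and rises past the threshold within 10 kb, list genes within 1 kb, and Cebpa and Hnf4a; other names were chosen after their values were seen.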

Additional observations from a re-analysis of the deposited data

How the results depend on the processing

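The number of late regions depended on how early binding was read. It was 926 when a peak of either early replicate counted, 2745 when either replicate counted at all 5 stages, 761 with all lists cut to their widest peaks, and 1299 to 2600 with 1 C/EBPa list left out. The HNF4a difference between later and earlier lists kept its direction in all 16 alternatives and its call in 15. It was 31.2 points with HNF4a lists cut to their widest peaks; with stages averaged it was 47.8 points (exact p = 0.2), and the distance to every-stage regions was then -26.9 points (exact p = 0.0625). Against P60-only regions that distance was 16.1 points, in the other direction.

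Of the genes near late regions, those lower in the C/EBPa knockout numbered 6 of 43 tested within 1 kb, 90 of 1620 within 50 kb and 10 of 199 around regions with no early peak, beside 2.86% of all genes, and 18 to 32 with 1 library left out, beside 1.45% to 3.79%. Those higher numbered 0 within 1 kb and 16 within 50 kb, beside 0.883%, 18 with library totals, beside 2.67%, and 3 to 6 with 1 library left out, beside 0.318% to 0.799%. Those lower in the HNF4a knockout numbered 6, 96 and 19 in the same 3 sets, beside 3.17%, and 12 to 23 with 1 library left out, beside 1.22% to 2.70%. With only the 2 groups compared in the fit, 46 of 379 were lower in the HNF4a knockout, beside 5.06% of all genes. In that setting 25 of 389 were lower in the C/EBPa knockout, beside 2.51%, and 5 were higher, beside 0.757%. With the replicate number as a block (replicate block), 26 were lower and 5 higher in the C/EBPa knockout and 18 lower in the HNF4a knockout, beside 2.25%, 0.619% and 1.94% of all genes. Same-numbered WT and C/EBPa knockout libraries had correlations of -0.0633, 0.19 and -0.231 of their deviations from the group means. Differently numbered ones ranged from -0.424 to 0.491. These values gave no sign that the numbers pair the livers, but so few correlations cannot exclude it. In all, 72 of 97 alternatives left the call or the count within 1.5 times. The alternatives without chromosomes X and Y, and for the HNF4a shares those with no early peak, were chosen after seeing the data. The peak lists give no heights, which limits every statement on binding to presence in a list.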
